A study of Rattus norvegicus with 9 samples.

Results

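Rat lung fibroblasts isolated after the walls of the alveoli had formed, on postnatal day 21, were compared with fibroblasts isolated before that began, on day 2. The comparison used 6 of the 9 arrays of the series, the 3 titled postnatal day 21 and the 3 titled postnatal day 2. The 3 arrays of day 7, when septation was under way, entered the estimate of the spread only. Each day 2 sample pooled the cells of 5 pups of a litter and each day 21 sample those of 4 pups, and each of the 3 samples of a day carries its own litter number. No treatment of the pups and no genetic change is named, and the labels name neither the strain or sex of the pups nor whether litter 1 of day 2 is litter 1 of day 21. In both groups lung cells were freed with trypsin and collagenase and left for 45 min on plastic in medium with serum. The cells that stuck were scraped off at once and frozen, so they were never cultured further, and they are a fraction selected by adhesion.

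In the rat, alveoli form mostly after birth. Ridges called secondary septa rise from the walls of the saccules, with elastic fibres and myofibroblasts at their tips, and fibroblasts that store lipid lie at their base. Lung fibroblasts lay down elastin, fibrillins and collagens, and exchange FGF, PDGF, TGF-beta, Wnt, hedgehog and retinoid signals with the epithelium and endothelium. The question put to this pair of days is which fibroblast transcripts differ before and after septation.

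Levels below are log2 of the deposited array intensity, a change is the day 21 mean minus the day 2 mean with its standard error (SE) from limma, and a gene is called when its Benjamini-Hochberg adjusted limma p is under 0.05. A gene with several probe sets (groups of probes for a transcript) is represented by its brightest. Of 14217 genes 1251 (8.8%) were called higher at day 21 and 2176 (15.3%) lower, and these shares are the background for counts of list members in this fit. When the macrophage list mean entered the fit of all 9 arrays as a covariate, fewer genes were called, 311 higher and 682 lower. List counts of that fit are given as those with the covariate and have these totals of the 14217 as background. With 1 array left out, 709 to 1159 genes were higher and 1581 to 1967 lower, so those counts have their own background too. A lower list count in such a fit is thus not by itself particular to the list. The 25th percentile of all values lay at 4.25, and levels near or under it are called the low end. A change to or from such a level is understated, and the order of such changes is not measured. The median intensity of the 6 arrays lay between 37.9 and 48.0. Over all probe sets, replicates correlated at 0.976 to 0.985 within a day, and at 0.925 to 0.956 between days 2 and 21. The log2 difference between the 3' and 5' control probe sets of hexokinase, which grows as RNA is degraded, was 0.37 to 0.87 at day 2 and 1.07 to 1.33 at day 21, with no overlap. The same difference for beta-actin was 0.51 to 0.80 and 0.49 to 0.73, and for GAPDH -0.07 to 0.16 and 0.11 to 0.24, so that the days overlapped in both. The part of RNA quality in the results was not tested. Eif2s3y, a gene of the Y chromosome, stood at 3.68, 7.99 and 7.07 at day 2 and 5.94, 7.32 and 7.44 at day 21. The array of day 2 replicate 1 was thus at the low end for it. Of 4 sex-linked genes measured none was called by its brightest probe set. Another probe set of Xist, a gene of the X chromosome, was called lower (-1.03, adjusted p = 0.0278). It stood at 9.67, 8.54 and 8.86 at day 2 and 8.40, 7.49 and 8.07 at day 21. The part of the sex of the pups in the results was not tested.

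The fibroblast identity was checked against marker genes. The collagen genes Col1a1 and Col3a1 stood between 12.05 and 13.28 on all 6 arrays and did not pass the test between the days. Of 20 fibroblast markers measured, 4 rose and 9 fell (2 and 3 with the covariate), and the list mean lay at 10.17 to 10.40 before and 9.63 to 10.05 after septation. Among those that fell, Tcf21, a transcription factor of lung mesenchyme, stood at 9.31, 8.85 and 9.53 at day 2 and 8.13, 7.70 and 7.22 at day 21, a change of -1.55 (SE 0.26, adjusted p = 0.00181). Pi16, a marker of adventitial fibroblasts, rose, with 7.18, 7.26 and 7.88 at day 2 and 9.48, 9.56 and 9.07 at day 21, a change of 1.93 (SE 0.21, adjusted p = 9.73e-05). Clec3b had the largest change of the list, with 9.48, 9.38 and 9.97 at day 2 and 6.78, 7.56 and 6.26 at day 21. It fell by 2.74 (SE 0.39, adjusted p = 0.000646). The day 21 arrays of Tcf21 and Clec3b were all below those of day 2, and those of Pi16 all above.

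Markers of other cells were present as well. The mean of 31 macrophage markers was 8.74 to 8.91 at day 2 and 9.27 to 9.76 at day 21, so the days did not overlap although macrophage levels differ less in this pair than in pairs with day 7, where the mean was 7.12 to 7.98. Of these markers 12 rose and none fell, with a median change of 0.70. With each array left out 8 to 11 rose, and 1 fell without day 21 replicate 3. Csf1r, the receptor for a macrophage growth factor, stood at 9.36, 9.27 and 9.03 at day 2 and 9.91, 9.57 and 9.74 at day 21 and did not pass (adjusted p = 0.137). Neither did Cd68 (adjusted p = 0.224) or Cd14 (adjusted p = 0.511). Adgre1, a macrophage surface receptor, rose by 1.58 (SE 0.24, adjusted p = 0.000891) and the complement gene C1qc by 1.33 (SE 0.20, adjusted p = 0.000952).

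Mast cell markers were at the low end at day 2, with a list mean of 4.57 to 4.86, and lay at 5.76 to 6.85 at day 21. Of 16 measured, 11 rose and none fell, and 4 rose with the covariate. Tpsb2, a tryptase, rose by 2.22 (SE 0.42, adjusted p = 0.00339) and Hdc, which makes histamine, by 1.70 (SE 0.34, adjusted p = 0.00471), while Fcer1a, the IgE receptor chain, did not pass (1.30, adjusted p = 0.0529). The mean of 10 dendritic cell markers was 6.07 to 6.23 at day 2 and 7.38 to 7.53 at day 21, and 6 of the 10 were called higher (5 with the covariate; 1 was lower without day 21 replicate 1), among them Ccl17, Ccl22 and Cst3, which are described below as well. Of 22 T and NK cell markers 10 rose, but Cd3e, Cd3d and Cd3g, which define T cells, stayed between 3.44 and 4.86 on all arrays and did not pass. That count was 6 without day 2 replicate 3 or without day 21 replicate 3, and 3 with the covariate.

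Of 12 neutrophil markers 6 were lower and 1 higher (4 and 0 with the covariate), with a list mean of 6.22 to 7.28 at day 2 and 4.78 to 5.79 at day 21. The rise was not called without day 2 replicate 1 or 2 or without any 1 of the day 21 replicates. S100a9, a calcium-binding protein of neutrophils, stood at 9.51, 11.16 and 10.06 at day 2 and 5.94, 8.64 and 7.55 at day 21, a change of -2.87 (SE 0.61, adjusted p = 0.00684). Of 24 endothelial markers 11 fell and 1 rose (8 and 1 with the covariate), with list means of 6.04 to 6.27 and 5.36 to 5.64. Of 17 markers of type II alveolar epithelium 2 rose and none fell, of 9 of type I epithelium 1 rose and 2 fell, and of 12 airway markers 1 rose and 2 fell. The shares, 11.8% and 0.0%, 11.1% and 22.2%, and 8.33% and 16.7%, stand beside 8.8% and 15.3% of all genes, so the epithelial rises and the type I and airway falls were near the background. Leaving out single arrays changed each of these counts, other than that of the airway rise, by at least 1. In such mixed samples fewer cells of a type and less RNA per cell cannot be told apart.

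**Figure D1:**
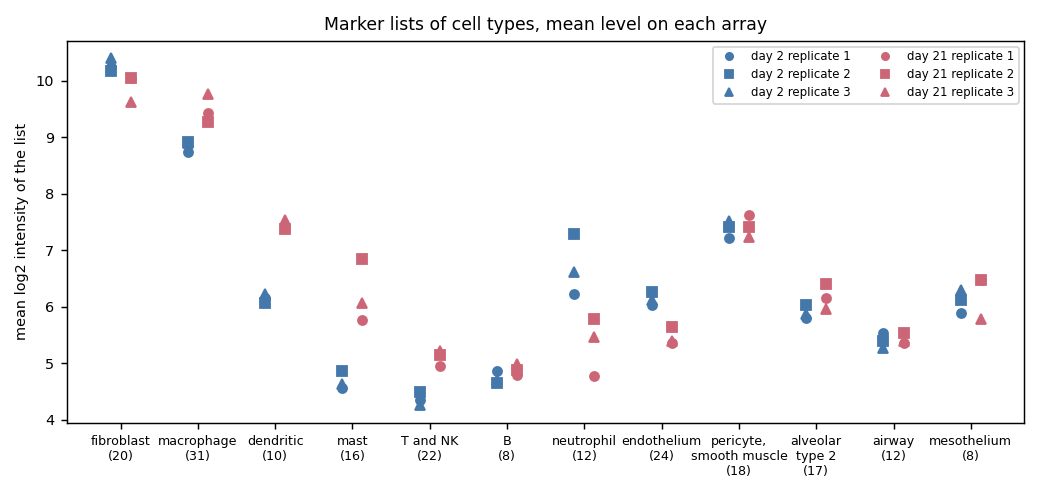
Mean log2 intensity of the measured members of 12 marker lists on each array (number of members in brackets; blue day 2, red day 21; symbols give the replicate). The macrophage means lie at 8.74 to 8.91 at day 2 and 9.27 to 9.76 at day 21, the mast cell means at 4.57 to 4.86 and 5.76 to 6.85, and the endothelial means at 6.04 to 6.27 and 5.36 to 5.64.

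Over the whole array 2118 of 31042 probe sets (6.82%) were higher at day 21 and 3773 (12.2%) were lower. The median change of all genes was 0.02. Of the called probe sets 36.0% were higher, a share that became 47.3% when the arrays were quantile normalized once more. The day 2 array of replicate 2 weighed most on the rises: without it 1186 probe sets and 709 genes were higher. Among the genes called, 430 rose and 792 fell at least 2-fold, 63 rose and 131 fell at least 4-fold, and 18 rose and 26 fell at least 8-fold. The 3 day 21 values lay wholly above those of day 2 in 18.5% of all genes and wholly below in 24.5%.

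**Figure D2:**
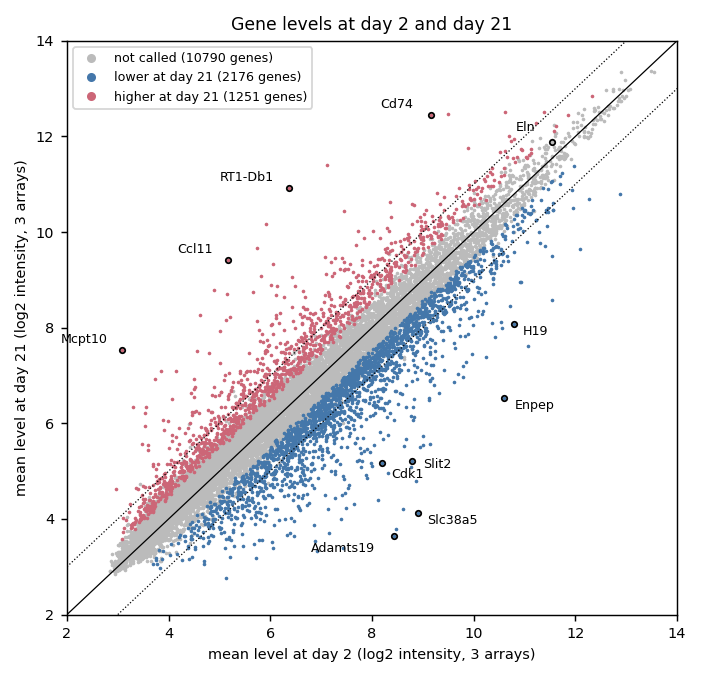
Mean log2 intensity of each of 14217 genes at day 2 (horizontal) and day 21 (vertical), 3 arrays each; red genes were called higher (1251) and blue genes lower (2176) at day 21, the solid line marks equal levels and the dotted lines a 2-fold difference. Class II genes, mast cell proteases and Ccl11 lie far above the diagonal, Adamts19, Slc38a5, Slit2, Enpep and H19 far below it, and the elastin gene Eln close to it.

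Genes of class II antigen presentation, through which cells show peptides to helper T cells, had 3 of the 4 largest fitted rises among named genes. Of 14 genes measured 8 rose and none fell, 57.1% against the background of 8.8%, with a median change of 0.67. RT1-Db1, a beta chain, had the largest fitted rise, with 6.58, 6.35 and 6.16 at day 2 and 10.80, 10.94 and 11.00 at day 21, a change of 4.55 (SE 0.30, adjusted p = 3.38e-06) or 23.4-fold. RT1-Ba, the alpha chain of another class II molecule, stood at 7.63, 7.53 and 6.17 at day 2 and 11.31, 11.34 and 11.58 at day 21, a change of 4.30 (SE 0.37, adjusted p = 1.97e-05). Its partner RT1-Bb, the beta chain, stood at 6.16, 6.45 and 5.10 at day 2 and 10.35, 9.74 and 10.40 at day 21, a change of 4.26 (SE 0.38, adjusted p = 2.54e-05). Day 2 replicate 3 was the lowest array for all of these, and no array of day 21 came near day 2. RT1-Da stood at 9.69, 9.79 and 9.02 at day 2 and 12.39, 12.51 and 12.52 at day 21, a change of 2.97 (SE 0.29, adjusted p = 4.79e-05), and Cd74, the invariant chain that escorts class II molecules, at 9.12, 9.27 and 9.06 at day 2 and 12.34, 12.52 and 12.49 at day 21, a change of 3.30 (SE 0.26, adjusted p = 9.95e-06). RT1 genes form families of near-identical copies, so a probe set may read more than 1 of them.

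Ciita, the coactivator that switches these genes on, stood at 4.57, 4.54 and 4.27 at day 2 and 4.71, 5.24 and 5.18 at day 21. It rose by 0.58 (adjusted p = 0.0427), but it was no longer called without day 2 replicate 1, day 2 replicate 2, day 2 replicate 3, day 21 replicate 2 or day 21 replicate 3 (adjusted p up to 0.133). The co-stimulatory ligand Cd80 rose by 0.77 (adjusted p = 0.0102). Cd74 and the RT1 class II genes are made by dendritic cells, macrophages and B cells. Of the dendritic markers Cd83 rose by 2.00 (adjusted p = 2.39e-05) and Irf8 by 1.06 (adjusted p = 0.000779). Flt3, another of them, stood at 4.89, 4.44 and 4.53 at day 2 and 4.88, 5.19 and 5.37 at day 21 and did not pass (adjusted p = 0.131). The B cell markers Cd79b and Ms4a1 stayed at the low end, from 3.47 to 4.33. Of 8 B cell markers measured 1 was called higher (12.5%) and none lower, and none was called with the covariate. That call, of Blnk (0.57, adjusted p = 0.0402), was lost without day 2 replicate 1, 2 or 3 or without day 21 replicate 2 or 3. With the macrophage covariate 5 class II members were called higher, the change of RT1-Db1 was 4.13 (adjusted p = 0.000433) and that of Cd74 2.74 (adjusted p = 0.000884). The part of dendritic and B cells was not tested.

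Promoters are shown for 4 class II chains that rose and hold CTGATTGG in the stretch shown, as their choice required. Each is given as the 110 bases before the start of the gene, from the RefSeq table for the GRCr8 build. They are written 5′ to 3′ on the strand of the gene. Capitals mark CTGATTGG, the Y box of class II promoters, searched on both strands. The letters include ATTGG, the CCAAT box. The stretches lie at chr20:4560163-4560272 on the minus strand for RT1-Db1, chr20:4576947-4577056 on the plus strand for RT1-Ba, chr20:4604119-4604228 on the minus strand for RT1-Bb and chr20:4515305-4515414 on the plus strand for RT1-Da.
RT1-Db1: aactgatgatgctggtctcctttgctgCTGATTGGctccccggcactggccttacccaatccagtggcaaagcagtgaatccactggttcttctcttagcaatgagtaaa
RT1-Ba: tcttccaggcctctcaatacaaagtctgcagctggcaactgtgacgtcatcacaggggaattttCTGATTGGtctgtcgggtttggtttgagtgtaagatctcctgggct
RT1-Bb: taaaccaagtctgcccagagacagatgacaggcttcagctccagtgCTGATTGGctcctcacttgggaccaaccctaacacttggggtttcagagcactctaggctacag
RT1-Da: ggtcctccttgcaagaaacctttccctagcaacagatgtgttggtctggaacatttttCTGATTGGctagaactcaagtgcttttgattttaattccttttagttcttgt
Of the 8 class II genes called higher 7 had a promoter in the table and 4 of these (57.1%) held CTGATTGG, which stood in 3.55% of all 27457 promoters of 300 bases, from 250 before to 50 after the start. Of the 11 measured class II genes with a promoter, called or not, 4 held CTGATTGG. Whether that match sets apart the genes that rose was not tested. A match describes the letters and does not show that a factor binds there.

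Beside class II genes, the 20 largest rises included mast cell proteases and chemokines. Mcpt10, a mast cell protease, stood at 2.64, 3.68 and 2.96 at day 2 and 6.42, 8.89 and 7.27 at day 21, so that the day 21 arrays were uneven but all above day 2, with a change of 4.43 (SE 0.49, adjusted p = 0.000113). Cpa3, mast cell carboxypeptidase, showed the same order of the day 21 arrays, at 4.51, 5.37 and 4.82 at day 2 and 8.04, 10.04 and 8.26 at day 21. Its change was 3.88 (SE 0.45, adjusted p = 0.000145). Ccl11, or eotaxin, a chemokine that attracts eosinophils, stood at 4.99, 5.20 and 5.31 at day 2 and 10.05, 8.96 and 9.23 at day 21, a change of 4.25 (SE 0.27, adjusted p = 2.64e-06). Its highest array was day 21 replicate 1, and the days did not overlap.

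Ccl17 and Ccl22, both ligands of the receptor CCR4, rose by 3.57 (SE 0.26) and 3.65 (SE 0.17). Gata3, a transcription factor of type 2 lymphocytes and of several epithelia, stood at 3.61, 4.22 and 3.70 at day 2 and 7.87, 7.24 and 6.15 at day 21, a change of 3.24 (SE 0.35, adjusted p = 8.29e-05). Cldn11, a claudin of tight junctions, stood at 5.88, 5.99 and 5.60 at day 2 and 8.86, 9.36 and 9.03 at day 21, a change of 3.26 (SE 0.24, adjusted p = 6.89e-06). The day 21 arrays were uneven for Gata3, and neither gene overlapped between the days. PCOLCE2, which enhances procollagen cleavage, rose by 3.02 (SE 0.22, adjusted p = 6.11e-06), Fam180a by 3.93 (SE 0.22, adjusted p = 1.64e-06) and Pla2g2d, a secreted phospholipase, by 2.99 (SE 0.28, adjusted p = 3.65e-05). Fcmr, the receptor for IgM, rose by 3.19 (SE 0.21), and Mcoln2, a lysosomal channel, by 3.03 (SE 0.19).

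With the macrophage covariate the changes were 3.86 (adjusted p = 0.000355) for Ccl11, 2.87 (adjusted p = 0.000198) for Ccl17 and 3.91 (adjusted p = 0.00936) for Cpa3. Of the 20 genes with the largest rises, Serpinb10 was the one whose call was lost in that fit, at 2.69 (adjusted p = 0.0566). None of the 20 lost its call when 1 of the 6 arrays was left out.

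Among the largest falls were genes for peptidases, transporters, guidance cues and matrix. Adamts19, a secreted metalloprotease, stood at 8.78, 8.52 and 8.01 at day 2 and 3.81, 3.57 and 3.55 at day 21, a fitted change of -4.79 (SE 0.20, adjusted p = 3.7e-07). At day 21 it stood below the low end on every array. Slc38a5, a glutamine transporter, stood at 9.10, 8.75 and 8.87 at day 2 and 3.80, 4.05 and 4.53 at day 21, a change of -4.78 (SE 0.21, adjusted p = 3.7e-07). Aoc1, the diamine oxidase that degrades histamine, stood at 8.74, 8.14 and 8.54 at day 2 and 3.70, 3.63 and 4.01 at day 21, a change of -4.69 (SE 0.21, adjusted p = 3.7e-07). Both had day 21 means under the low end, so the order of these 3 falls is not measured, and neither overlapped between the days. Of the 20 genes with the largest fitted falls 9 had such a mean at day 21, and of the 20 with the largest fitted rises 4 had one at day 2, Mcpt10, Gata3, Fcmr and Cma1.

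The transmembrane collagen Col13a1 stood at 9.17, 8.91 and 8.53 at day 2 and 4.78, 5.06 and 4.52 at day 21, a change of -4.08 (SE 0.21, adjusted p = 1.2e-06), and Col25a1, a second collagen of that type, fell by 3.60 (SE 0.27, adjusted p = 7.83e-06). Slit2, a secreted ligand of Robo receptors, stood at 9.01, 8.86 and 8.52 at day 2 and 5.35, 5.67 and 4.64 at day 21, a change of -3.57 (SE 0.26, adjusted p = 6.81e-06). Its day 7 mean was 10.50, above both. Meox2, a homeobox factor of mesenchyme, stood at 9.22, 8.87 and 8.95 at day 2 and 5.63, 5.82 and 5.17 at day 21, a change of -3.47 (SE 0.20, adjusted p = 1.64e-06). Prom1, Gja5 (connexin 40), Adh1c (an alcohol dehydrogenase), Tmem132c and Unc79 (a subunit of a sodium leak channel complex) changed by -3.45, -3.44, -3.43, -3.41 and -4.03. Srpx2, a secreted protein that binds the urokinase receptor, fell by 3.69 (SE 0.25, adjusted p = 3.88e-06). Stfa3 and Stfa2l2, stefins of neutrophils, fell by 4.40 and 3.58 and are members of the neutrophil list. All 20 genes with the largest falls remained called with the macrophage covariate and without any of the 6 arrays.

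**Figure D3:**
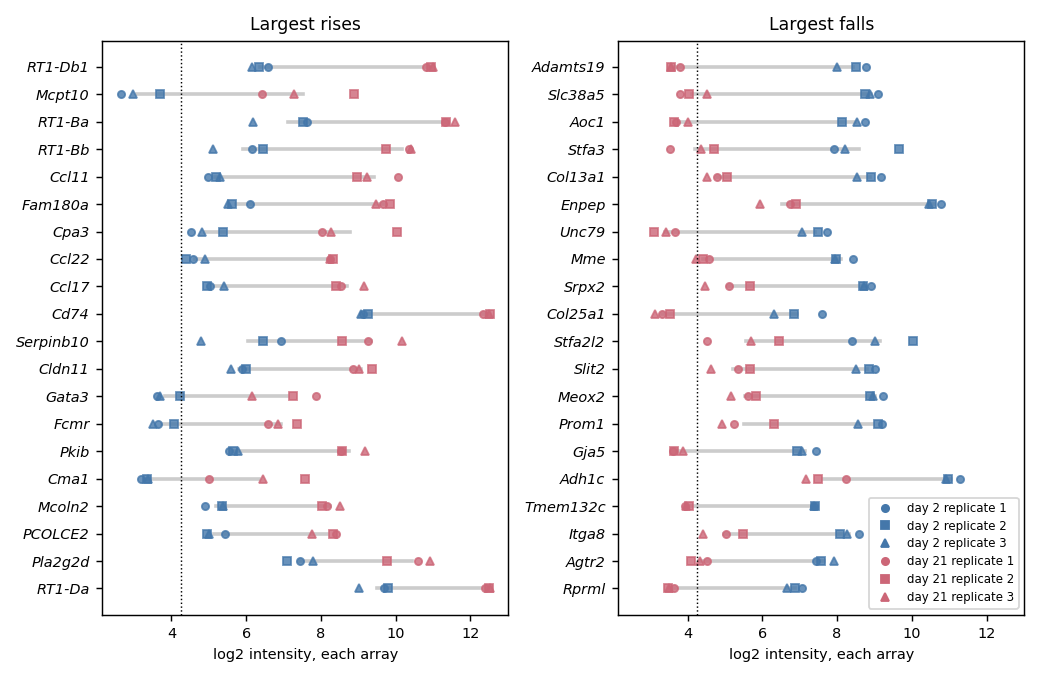
Log2 intensity on each of the 6 arrays for the 20 genes with the largest rises (left) and the 20 with the largest falls (right); blue is day 2, red day 21, symbols give the replicate, grey bars join the means and the dotted line is the low end (4.25). In each of these genes the 3 day 21 values lie wholly to one side of the 3 day 2 values, as their choice required, and Cma1, Mcpt10, Cpa3 and Stfa2l2 spread most among the day 21 arrays.

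Genes of mitosis fell almost as a whole. Of 60 measured, 51 were called lower and none higher, 85.0% against the background of 15.3%, with a median change of -1.46, whereas the median of all genes was 0.02. Cdk1, the kinase that drives entry into mitosis, stood at 7.92, 8.42 and 8.23 at day 2 and 4.98, 4.90 and 5.59 at day 21, a change of -3.03 (SE 0.21, adjusted p = 4.25e-06). Ccnb2, a cyclin that partners it, stood at 8.55, 8.85 and 8.92 at day 2 and 6.10, 6.06 and 6.33 at day 21, a change of -2.61 (SE 0.16, adjusted p = 2.64e-06). Top2a, which untangles chromosomes, stood at 7.74, 7.72 and 7.78 at day 2 and 5.05, 5.29 and 5.35 at day 21, a change of -2.51 (SE 0.15, adjusted p = 1.64e-06). In each the day 21 arrays lay at least 2 log2 units below every day 2 array. Ccna2, Ttk (a checkpoint kinase) and Nuf2 (a kinetochore protein) fell by 2.58, 2.65 and 2.53, and Aurkb by 1.76. With each array left out in turn, 47 to 50 members were lower, 1 was higher without day 2 replicate 3, and with the macrophage covariate 39 were lower.

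Of 59 genes of DNA replication 38 were lower and 1 higher, with a median of -0.72, and 21 were lower with the covariate. Rfc3, a subunit of the clamp loader, stood at 7.26, 7.59 and 7.79 at day 2 and 5.72, 5.62 and 5.85 at day 21, a change of -1.81 (SE 0.18, adjusted p = 4.79e-05), and the helicase subunit Mcm6 fell by 1.58 (SE 0.18, adjusted p = 0.000153). Tyms, thymidylate synthase, fell by 1.55 (SE 0.21, adjusted p = 0.000384). Pcna, the sliding clamp itself, stood at 11.19, 11.22 and 11.13 at day 2 and 11.31, 11.23 and 11.43 at day 21, a change of 0.14 (adjusted p = 0.489). Mcm10 was the member that rose, by 1.47 (adjusted p = 0.006), but its pair of probe sets were called in opposite directions.

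Cyclins and inhibitors that act in G1 divided. Ccnd1 and Ccnd2, cyclins that carry growth signals, fell by 1.39 (adjusted p = 0.00695) and 1.07 (adjusted p = 0.00634). Cdkn1c, an imprinted inhibitor of cyclin-dependent kinases, fell by 1.44 (SE 0.15, adjusted p = 8.49e-05), with 10.17, 10.22 and 10.03 against 8.89, 8.68 and 8.53. Cdkn1a, or p21, an inhibitor induced by p53, rose by 0.72 (adjusted p = 0.00764), and Cdkn1b, or p27, stood at 9.32, 9.42 and 9.19 at day 2 and 9.25, 9.49 and 9.12 at day 21, a change of -0.02 (adjusted p = 0.935). Gadd45g, a growth arrest gene, rose by 1.38 (SE 0.15, adjusted p = 9.73e-05), Gadd45b by 0.99 (adjusted p = 0.00136) and Tob1, an antiproliferative adaptor, by 1.17 (adjusted p = 0.00117). Of 27 genes in this list 8 fell and 6 rose, or 3 and 2 with the covariate.

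Because the mitotic genes moved together, the promoters of the 3 members with the largest falls among those with both motifs in the stretch shown are given. They are again the 110 bases before the start from RefSeq on GRCr8. Capitals mark TTTGAA, the cell cycle homology element, and ATTGG, the CCAAT box, each on either strand. They lie at chr20:19265183-19265292 on the plus strand for Cdk1, chr8:79981659-79981768 on the minus strand for Ccnb2 and chr10:84473094-84473203 on the minus strand for Top2a.
Cdk1: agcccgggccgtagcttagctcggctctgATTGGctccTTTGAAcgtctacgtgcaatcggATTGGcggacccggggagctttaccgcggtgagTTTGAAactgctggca
Ccnb2: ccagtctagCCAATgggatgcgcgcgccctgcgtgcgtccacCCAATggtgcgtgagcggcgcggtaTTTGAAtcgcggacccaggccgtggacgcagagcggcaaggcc
Top2a: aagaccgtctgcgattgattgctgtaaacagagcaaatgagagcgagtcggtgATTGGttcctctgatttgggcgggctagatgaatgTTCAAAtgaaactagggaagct
Of the 51 mitotic genes called lower, 45 had a promoter in the table. TTTGAA stood in 28 of those (62.2%) and in 18.1% of all promoters, and ATTGG in 35 (77.8%) and 37.7%. Of the 52 measured mitotic genes with a promoter, called or not, 33 held TTTGAA and 40 ATTGG. The matches are thus a trait of the list and do not set apart the genes that fell. Of the 38 replication genes called lower 33 had a promoter, of which 2 (6.06%) held TTTGAA. TTTGGCGC, a form of the E2F site, stood in 10 of these 33 (30.3%) and in 0.521% of all. Of the 51 measured replication genes with a promoter, called or not, 11 held TTTGGCGC. Whether that match sets apart the genes that fell was not tested. The same 110 bases are shown for Tyms, at chr9:120776084-120776193 on the minus strand, and Gins1, a subunit of the replicative helicase chosen for this stretch after its values were seen, at chr3:160184810-160184919 on the plus strand, with TTTGGCGC in capitals on either strand. In Gins1 matches on both strands overlap.
Tyms: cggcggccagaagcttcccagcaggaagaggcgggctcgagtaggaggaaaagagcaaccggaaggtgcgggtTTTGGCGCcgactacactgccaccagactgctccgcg
Gins1: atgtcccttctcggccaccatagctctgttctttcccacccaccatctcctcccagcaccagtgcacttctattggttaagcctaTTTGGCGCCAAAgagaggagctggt

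Imprinted genes that act on fetal growth were lower in large part, 11 of 19 against 2 that rose (8 and 0 with the covariate), with a median change of -1.14. H19, a long noncoding RNA expressed from the maternal allele, stood at 10.56, 10.57 and 11.23 at day 2 and 8.20, 8.24 and 7.77 at day 21, a change of -2.72 (SE 0.21, adjusted p = 9.08e-06). Its neighbour Igf2, the fetal insulin-like growth factor expressed from the paternal allele, stood at 9.78, 9.76 and 10.67 at day 2 and 8.45, 8.74 and 7.52 at day 21, a change of -1.83 (SE 0.32, adjusted p = 0.00217). The day 2 array of replicate 3 was the highest for both. Mest stood at 8.94, 9.23 and 9.77 at day 2 and 6.91, 6.96 and 6.04 at day 21, a change of -2.68 (SE 0.30, adjusted p = 0.000128), and Meg3, another noncoding RNA, fell by 2.29 (SE 0.29, adjusted p = 0.000266). Ndn (necdin) and Slc38a4, an amino acid transporter, fell by 1.86 (adjusted p = 4.06e-05) and 2.08 (adjusted p = 0.000189). Dlk1, a paternally expressed ligand, stood at 4.87, 4.44 and 5.50 at day 2 and 4.30, 4.32 and 4.41 at day 21 and did not pass (adjusted p = 0.143).

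Of the 19 genes of IGF signalling measured, 6 fell, 1 rose and 12 did not pass, and with the covariate 5 fell and 0 rose. Igf2bp2 and Igf2bp3, proteins that bind Igf2 mRNA, fell by 1.93 (SE 0.20, adjusted p = 5.73e-05) and 1.37 (SE 0.18, adjusted p = 0.000346). Igf2r, the receptor that clears IGF2, fell by 1.31 (adjusted p = 0.000303) and Insr, the insulin receptor, by 1.65 (adjusted p = 0.00155). Igf1, the postnatal growth factor, stood at 10.84, 11.02 and 10.77 at day 2 and 10.19, 9.70 and 10.62 at day 21, and did not pass (adjusted p = 0.0638), although 1 of its 3 probe sets was called lower (-0.95, adjusted p = 0.0132). Igfbp6, which binds IGF2, rose by 1.22 (adjusted p = 0.00336). Mdk (midkine) and Ptn (pleiotrophin), paired heparin-binding growth factors of development, were both lower. Mdk stood at 9.40, 9.61 and 10.04 at day 2 and 7.18, 7.20 and 6.66 at day 21, a change of -2.67 (SE 0.24, adjusted p = 2.21e-05), and Ptn at 10.59, 10.26 and 10.19 at day 2 and 8.37, 7.93 and 7.99 at day 21, a change of -2.25 (SE 0.17, adjusted p = 7e-06).

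Many genes for the assembly of elastic fibres were lower, while of the probe sets of elastin itself the brighter did not pass and the other was higher. Of 21 measured 11 were lower and 3 higher, with a median change of -0.80, and with each array left out 10 to 13 were lower. Eln, elastin itself, stood by its brighter probe set at 11.47, 11.30 and 11.85 at day 2 and 11.97, 11.99 and 11.68 at day 21, a change of 0.34 (adjusted p = 0.196), and the days overlapped. Its other probe set stood at 5.88, 5.46 and 5.58 at day 2 and 8.90, 9.0 and 7.36 at day 21, a change of 2.78 (SE 0.34, adjusted p = 0.000235), with all day 21 arrays above day 2. Fbn2, the fibrillin of fetal microfibrils, stood at 7.56, 7.13 and 7.79 at day 2 and 4.55, 4.08 and 4.02 at day 21, a change of -3.28 (SE 0.21, adjusted p = 2.96e-06), to a mean under the low end. Fbln5, which brings elastin to microfibrils, stood at 9.80, 9.57 and 10.18 at day 2 and 7.78, 7.32 and 6.78 at day 21, a change of -2.56 (SE 0.28, adjusted p = 0.000102). Mfap2, a microfibril glycoprotein, stood at 9.02, 9.29 and 9.93 at day 2 and 7.31, 7.31 and 6.72 at day 21, a change of -2.30 (SE 0.25, adjusted p = 0.000104).

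Mfap4, another microfibril protein, fell by 2.08 (SE 0.19, adjusted p = 2.94e-05), and Emilin1, at the elastin surface, by 1.85 (SE 0.25, adjusted p = 0.000408). Lox, the oxidase that cross-links elastin and collagen, stood at 11.48, 11.24 and 11.23 at day 2 and 10.00, 10.07 and 9.25 at day 21, a change of -1.54 (SE 0.22, adjusted p = 0.000547). Fbn1, the main fibrillin, fell by 0.80 (adjusted p = 0.0249), but it was no longer called without day 2 replicate 1, day 2 replicate 3 or day 21 replicate 3 (adjusted p up to 0.0856). Efemp1, or fibulin 3, went the other way, at 7.41, 7.52 and 7.65 at day 2 and 9.40, 9.55 and 8.74 at day 21, a change of 1.70 (SE 0.20, adjusted p = 0.000171). Fbln1, or fibulin 1, fell by 1.91 (SE 0.31, adjusted p = 0.00139). With the macrophage covariate 9 members were lower and 2 higher.

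By their brightest probe sets the main fibrillar collagens did not pass. Col1a1 stood at 12.31, 12.05 and 12.95 at day 2 and 12.91, 12.71 and 12.24 at day 21. Col1a2 stood at 12.44, 12.35 and 12.94 at day 2 and 12.66, 12.62 and 12.19 at day 21 and Col3a1 at 12.96, 12.92 and 13.08 at day 2 and 13.28, 13.22 and 13.04 at day 21, and the days overlapped in all of them. Their changes of 0.18 (SE 0.26), -0.08 (SE 0.19) and 0.19 (SE 0.14) had adjusted p of 0.669, 0.801 and 0.365. The other probe set of Col1a2 was called lower, with 12.63, 12.62 and 12.68 at day 2 and 12.14, 12.13 and 11.55 at day 21, a change of -0.70 (SE 0.17, adjusted p = 0.0155). Of 19 interstitial and related collagens 6 were lower and none higher, with 1 higher without day 2 replicate 1 or 3 and 3 lower with the covariate. Beside the transmembrane pair above, Col16a1 and Col14a1, collagens that associate with fibrils, fell by 1.48 (adjusted p = 0.000735) and 1.28 (adjusted p = 0.00399). Col5a1, which starts fibril growth, fell by 1.03 (adjusted p = 0.0146), a call that did not hold without day 2 replicate 3 (adjusted p = 0.0535).

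Enzymes and chaperones that mature collagen fell in 5 of 17 members (2 with the covariate) and rose in none. P3h1, a prolyl hydroxylase, and Fkbp10, a prolyl isomerase of the endoplasmic reticulum, fell by 1.48 (adjusted p = 0.000765) and 1.17 (adjusted p = 0.00249), and Pcolce, which enhances procollagen cleavage, by 1.23 (adjusted p = 0.0029). That is opposite to its paralog PCOLCE2 above. Serpinh1, the collagen chaperone HSP47, fell by 0.68 (adjusted p = 0.0111).

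Basement membrane genes divided, with 6 of 21 lower and 5 higher (3 and 2 with the covariate). Nid1 (nidogen 1) stood at 11.11, 10.84 and 10.81 at day 2 and 9.44, 8.96 and 8.48 at day 21, a change of -1.96 (SE 0.22, adjusted p = 0.000119). The laminin chains Lama5 and Lamb1 fell by 1.65 (adjusted p = 0.00048) and 1.16 (adjusted p = 0.00116) and the proteoglycan Agrn by 1.50 (adjusted p = 0.000809). Col15a1, a collagen of the zone beneath the basement membrane, stood at 6.37, 6.33 and 7.19 at day 2 and 8.47, 8.43 and 7.31 at day 21, a change of 1.44 (SE 0.32, adjusted p = 0.00876). Lamb3, a chain of epithelial laminin, rose by 1.17 (adjusted p = 0.00697).

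**Figure D4:**
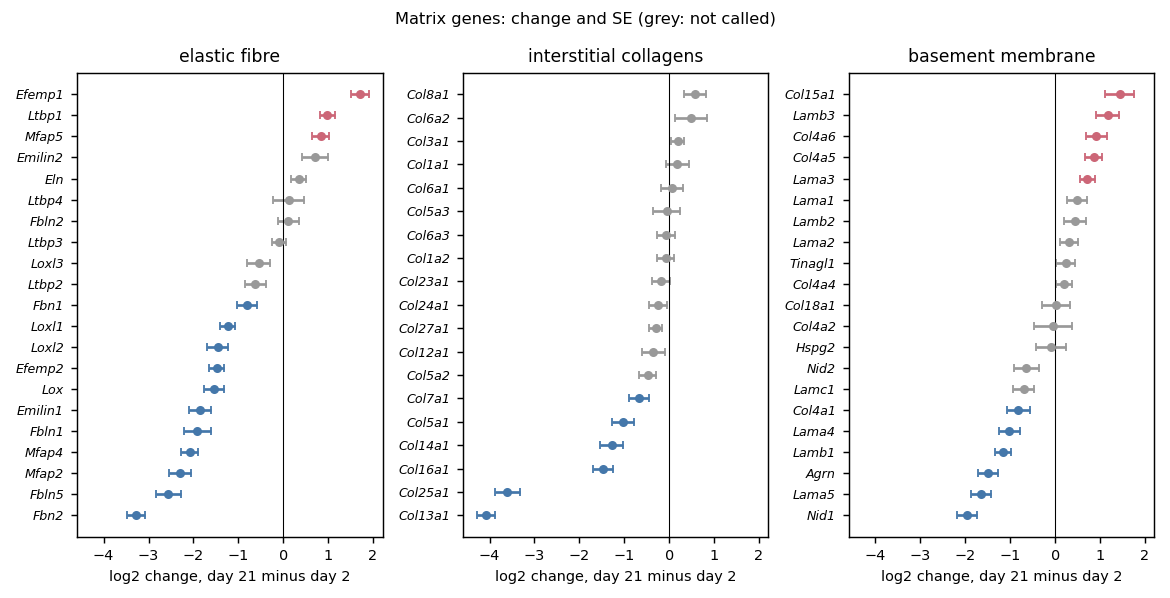
Log2 change (day 21 minus day 2) with its SE for every measured gene of 3 matrix lists; blue genes were called lower, red higher and grey were not called. Each gene is drawn by its brightest probe set: Eln (0.34) and the collagens Col1a1 (0.18), Col1a2 (-0.08) and Col3a1 (0.19) lie near 0, while Fbn2 (-3.28), Fbln5 (-2.56) and Col13a1 (-4.08) lie far below.

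Other matrix proteins also moved both ways, 11 of 34 lower and 7 higher (6 and 4 with the covariate). Tnc, tenascin C, a matrix protein of growing tissue, stood at 12.24, 11.94 and 12.09 at day 2 and 9.75, 9.95 and 9.21 at day 21, a change of -2.45 (SE 0.19, adjusted p = 9.66e-06). Fn1, fibronectin, stood at 12.29, 12.13 and 12.36 at day 2 and 10.70, 10.92 and 10.45 at day 21, a change of -1.58 (SE 0.17, adjusted p = 8.15e-05), and Postn, periostin, fell by 1.29 (SE 0.16, adjusted p = 0.000237). Spon1 fell by 2.40 (adjusted p = 0.000167) and the heparan sulfate proteoglycan Gpc3 by 1.70 (adjusted p = 0.00269). Dcn, decorin, which binds collagen fibrils, stood at 10.63, 10.84 and 10.89 at day 2 and 12.17, 12.11 and 11.57 at day 21, a change of 1.17 (SE 0.27, adjusted p = 0.0106). Prelp, a related small leucine-rich protein, stood at 5.98, 5.64 and 6.73 at day 2 and 8.43, 8.37 and 7.98 at day 21, a change of 2.14 (SE 0.24, adjusted p = 0.000129), and Omd, osteomodulin, rose by 1.58 (adjusted p = 0.00536). No array of day 21 overlapped with day 2 in Tnc, Fn1, Dcn or Prelp.

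Among proteases and their inhibitors 8 of 34 fell and 6 rose (3 and 4 with the covariate). Adamts7 and Adamts9 fell by 1.63 (adjusted p = 9.1e-05) and 1.72 (adjusted p = 0.0017), and Serpine2, an inhibitor of thrombin and urokinase, by 1.87 (adjusted p = 5e-05). Mmp13, a collagenase, stood at 6.54, 5.95 and 5.31 at day 2 and 7.58, 8.07 and 7.59 at day 21, a change of 1.82 (SE 0.27, adjusted p = 0.000829), and Serpinb2, an inhibitor of plasminogen activators that macrophages also express, at 6.68, 6.93 and 5.65 at day 2 and 9.07, 9.65 and 8.47 at day 21, a change of 2.65 (SE 0.35, adjusted p = 0.000381). Mmp2, a gelatinase, and its inhibitor Timp1 changed by -0.03 (adjusted p = 0.945) and -0.38 (adjusted p = 0.247) and did not pass.

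Of 26 contractile genes, which mark myofibroblasts and smooth muscle, 4 rose (15.4%) and 5 fell (19.2%), the falls near their background, and with the covariate 1 rose and 2 fell. Rises numbered 2 without day 2 replicate 1 or 2 or day 21 replicate 2, 7 without day 2 replicate 3, and falls numbered 3 without day 21 replicate 3. Lmod1, a smooth muscle leiomodin, stood at 4.58, 4.75 and 5.33 at day 2 and 7.03, 6.89 and 6.32 at day 21, a change of 1.86 (SE 0.24, adjusted p = 0.000308), and Synpo2, an actin-binding protein, rose by 1.28 (adjusted p = 0.00657). Acta2, smooth muscle actin, stood at 9.18, 9.37 and 9.95 at day 2 and 10.33, 10.49 and 10.19 at day 21. It rose by 0.84 (adjusted p = 0.0152), but it was no longer called without day 2 replicate 1, day 2 replicate 2 or day 21 replicate 2 (adjusted p up to 0.0613). Itga8, an integrin of septal myofibroblasts, stood at 8.59, 8.07 and 8.28 at day 2 and 5.02, 5.49 and 4.40 at day 21, a change of -3.34 (SE 0.28, adjusted p = 1.52e-05), and Fstl1 fell by 1.09 (adjusted p = 0.000961). Des, desmin, fell by 1.01 (adjusted p = 0.0155), and it was no longer called without day 21 replicate 3 (adjusted p up to 0.0637). Of 18 markers of pericytes and smooth muscle 4 were higher and 4 lower (2 and 0 with the covariate), and their list mean overlapped (7.21 to 7.52 and 7.24 to 7.62). Rises numbered 2 without day 2 replicate 1 or 2 or day 21 replicate 2, and falls numbered 2 without day 21 replicate 3.

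Of 6 PDGF genes measured 2 were called higher, Pdgfa and Pdgfrl, and 1 lower, Pdgfra, which did not remain called with the covariate. Pdgfa, the ligand that myofibroblast precursors need, stood at 6.41, 6.66 and 6.87 at day 2 and 7.50, 7.77 and 7.31 at day 21, a change of 0.88 (SE 0.17, adjusted p = 0.00432). Pdgfra, its receptor, stood at 8.77, 8.76 and 8.55 at day 2 and 8.02, 8.06 and 7.16 at day 21, a change of -0.95 (SE 0.23, adjusted p = 0.0133). Pdgfrl, which resembles the receptors, rose by 1.20 (adjusted p = 0.000632). Pdgfrb, the receptor of mural cells, did not pass by its brightest probe set (0.60, adjusted p = 0.065), although 1 of its 3 probe sets was called higher (0.95, adjusted p = 0.00432).

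Lipid genes, of which lipofibroblasts express many, moved both ways. Plin2, a coat protein of lipid droplets, stood at 12.10, 11.89 and 12.01 at day 2 and 12.01, 11.46 and 12.07 at day 21 and changed by -0.16 (adjusted p = 0.573), and Pparg, a regulator of lipid storage, by 0.38 (adjusted p = 0.16). Angptl4, an inhibitor of lipoprotein lipase, fell by 1.46 (SE 0.18, adjusted p = 0.00024), and Cidec, a lipid droplet protein, rose by 1.66 (adjusted p = 0.00393). Of 33 members 6 rose (18.2%) and 2 fell (6.06%), against 8.8% and 15.3% of all genes, or 2 and 3 with the covariate. Rises numbered 3 without day 2 replicate 2, and falls numbered 4 without day 21 replicate 3.

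Of 26 genes of FGF signalling 8 were lower and 1 higher, with receptors and targets among the falls, and with the covariate 5 were lower and 1 higher. Rises numbered 2 without day 2 replicate 3, 3 without day 21 replicate 3. Fgfr3 and Fgfr4, receptors that together restrain elastin and are needed for alveoli to form, were both lower. Fgfr3 stood at 8.54, 8.36 and 8.03 at day 2 and 5.56, 6.29 and 5.40 at day 21, a change of -2.56 (SE 0.24, adjusted p = 3.63e-05). Fgfr4 stood at 7.46, 7.28 and 7.05 at day 2 and 4.69, 4.20 and 4.45 at day 21, a change of -2.82 (SE 0.20, adjusted p = 5.36e-06), and was close to the low end at day 21. Fgfr2 fell by 0.73 (adjusted p = 0.0106), and Fgfr1 did not pass (-0.35, adjusted p = 0.357).

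Among ligands, Fgf10, a mesenchymal signal for epithelial growth, fell from 6.09, 5.31 and 5.68 at day 2 to 4.24, 4.16 and 4.39 at day 21, a change of -1.43 (SE 0.21, adjusted p = 0.000726). Fgf18, a ligand expressed in lung mesenchyme, was the member that rose, at 5.33, 5.22 and 6.09 at day 2 and 7.18, 7.19 and 6.92 at day 21, a change of 1.55 (SE 0.24, adjusted p = 0.00112). Etv1 and Etv4, transcription factors that FGF signals induce, fell by 1.88 (adjusted p = 0.000189) and 1.86 (adjusted p = 8.97e-05). The 5 probe sets of Etv1 were all called lower.

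Of 43 genes of the TGF-beta and BMP family 11 rose (25.6%) and 5 fell. Falls numbered 2 without day 21 replicate 3, 3 without day 2 replicate 1, 2 or 3 or day 21 replicate 1. Tgfb1 stood at 6.79, 6.34 and 8.51 at day 2 and 8.95, 8.93 and 9.40 at day 21, so that day 2 replicate 3 was well above the other day 2 arrays, and changed by 1.88 (SE 0.43, adjusted p = 0.0106). Tgfb3 rose by 1.19 (adjusted p = 0.00324), the co-receptor Tgfbr3 by 0.96 (adjusted p = 0.00519) and the receptor Tgfbr1 by 0.66 (adjusted p = 0.0135). Smad7, an inhibitor that the pathway induces, rose by 1.19 (SE 0.23, adjusted p = 0.00449). Of the BMP arm, Bmp7 fell by 1.58 (adjusted p = 0.00107), the endothelial receptor Acvrl1 by 0.88 (adjusted p = 0.00321), and the antagonist Nog rose by 1.10 (adjusted p = 0.00228). Gdf15, a stress-induced member of the family, rose by 1.50 (SE 0.22, adjusted p = 0.000728). With the macrophage covariate 2 members were called higher and 1 lower, and Tgfb1 changed by 2.03 (adjusted p = 0.111).

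Of 38 Wnt genes 8 were lower (21.1%) and 5 higher (13.2%), not far from 15.3% and 8.8% of all genes, and with the covariate 1 was lower and 0 higher. Rises numbered 2 without day 2 replicate 1 or 2, 3 without day 21 replicate 1, 2 or 3, and falls numbered 4 without day 2 replicate 1 or day 21 replicate 3, 5 without day 2 replicate 3 or day 21 replicate 2. Wnt2, a mesenchymal ligand of early lung, stood at 6.58, 6.16 and 6.90 at day 2 and 3.80, 4.61 and 4.44 at day 21, a change of -2.27 (SE 0.28, adjusted p = 0.000222). Wnt5a, a ligand that acts without beta-catenin, stood at 5.45, 5.32 and 5.63 at day 2 and 6.81, 7.18 and 6.37 at day 21, a change of 1.32 (SE 0.27, adjusted p = 0.00604). Axin2, a target of beta-catenin, did not pass (0.16, adjusted p = 0.67), and Lef1, a factor that acts with it, fell by 0.77 (adjusted p = 0.00771).

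Of 13 hedgehog genes 3 were lower, among them the transcription factors Gli1 and Gli2, and none rose. Gli1, itself a target of the pathway, fell from 7.80, 8.10 and 8.48 at day 2 to 6.35, 6.47 and 6.16 at day 21, a change of -1.80 (SE 0.20, adjusted p = 0.000107). Gli2, its activator, fell from 7.28, 7.22 and 6.86 at day 2 to 5.39, 5.97 and 5.07 at day 21, a change of -1.64 (SE 0.23, adjusted p = 0.000598). The co-receptor Boc fell by 1.03 (adjusted p = 0.00555). The other 10 did not pass by their brightest probe sets, but 1 rose without day 2 replicate 1 or 3 or day 21 replicate 1. With the covariate 2 members were lower. Of Smo, which did not pass by its brightest probe set, another probe set was called lower (-1.03, adjusted p = 0.00258).

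Retinoid genes passed in few cases, 3 of 21 lower and 1 higher (1 and 0 with the covariate). The shares, 14.3% and 4.76%, stand beside 15.3% and 8.8% of all genes. Rises numbered 0 without day 2 replicate 1 or 3 or day 21 replicate 1 or 2, 4 without day 21 replicate 3. Crabp1, which binds retinoic acid in the cytoplasm, fell by 2.33 (SE 0.20, adjusted p = 1.82e-05), and its day 21 arrays all lay below those of day 2. Aldh1a1, which makes retinoic acid, stood at 6.92, 6.17 and 6.52 at day 2 and 4.24, 4.92 and 4.21 at day 21, a change of -2.08 (SE 0.36, adjusted p = 0.00197). Rarb, a receptor that retinoic acid induces, fell by 0.90 (adjusted p = 0.0236), and it was no longer called without day 2 replicate 1, day 2 replicate 3, day 21 replicate 2 or day 21 replicate 3 (adjusted p up to 0.0934).

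Of 19 genes of glucocorticoid action 3 rose (15.8%) and 3 fell (15.8%), against 8.8% and 15.3% of all genes, so the falls were near the background. Without day 21 replicate 3, 5 rose. With the covariate both counts were 2. The enzymes that act on the hormone from both sides were lower. Hsd11b1, which regenerates active corticosteroid, stood at 10.91, 10.45 and 10.29 at day 2 and 7.95, 7.89 and 8.15 at day 21, a change of -2.55 (SE 0.18, adjusted p = 5.26e-06), and Hsd11b2, which inactivates it, fell by 1.78 (SE 0.18, adjusted p = 5.36e-05). The receptor Nr3c1 stood at 9.21, 9.38 and 9.14 at day 2 and 9.31, 9.32 and 8.92 at day 21, a change of -0.06 (adjusted p = 0.846).

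Of 36 guidance genes 12 fell and 7 rose, or 7 and 0 with the covariate, and the rises numbered 2 without day 21 replicate 2 and 3 without day 2 replicate 2 or day 21 replicate 1. Beside Slit2, its paralog Slit3 fell by 1.42 (adjusted p = 0.000312) and the receptor Robo2 by 1.76 (adjusted p = 0.000101), whereas Robo1 did not pass (0.01, adjusted p = 0.972). Efna5, an ephrin, fell by 1.60 (adjusted p = 0.000369) and Sema3d, a semaphorin, by 1.43 (adjusted p = 0.00678). Unc5c, a netrin receptor, stood at 7.78, 7.54 and 7.34 at day 2 and 4.74, 4.94 and 4.45 at day 21, a change of -2.84 (SE 0.21, adjusted p = 7.49e-06).

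Vegfd, a ligand of lymphatic and blood vessels, stood at 8.13, 7.65 and 7.96 at day 2 and 4.91, 4.80 and 4.88 at day 21, a change of -3.05 (SE 0.16, adjusted p = 1.31e-06), and Vegfa, the main vascular growth factor, stood at 9.45, 9.31 and 9.46 at day 2 and 8.51, 8.55 and 7.81 at day 21, a change of -1.12 (SE 0.22, adjusted p = 0.00484). Angpt2, which loosens vessel walls, rose by 1.62 (SE 0.22, adjusted p = 0.000489). Of 23 angiogenic genes 8 fell and 3 rose, or 5 fell without day 2 replicate 2, and 4 fell and 1 rose with the covariate.

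Beside these, the endothelial markers Tmem100, Plvap, Emcn and Cldn5 fell by 2.41 (adjusted p = 7.92e-05), 1.47 (adjusted p = 0.000297), 1.56 (adjusted p = 0.000459) and 1.50 (adjusted p = 0.000767), while Pecam1 did not pass (-0.20, adjusted p = 0.481). Whether endothelial cells carried part of the fall of vascular genes was not tested.

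Transcription factors of lung mesenchyme fell in 12 of 37 cases and rose in 6 (3 and 2 with the covariate). Tbx5 fell by 1.04 (SE 0.16, adjusted p = 0.0012) and its partner Tbx4 did not pass (-0.08, adjusted p = 0.781). Meis2, a cofactor of Hox proteins, stood at 6.64, 6.45 and 6.01 at day 2 and 4.47, 5.15 and 4.37 at day 21, a change of -1.70 (SE 0.23, adjusted p = 0.000433), and Hoxb4 fell by 1.05 (adjusted p = 0.00156). Hoxa5, which the lung needs for its structure, did not pass (-0.33, adjusted p = 0.237). Of 18 genes of the Hox list 5 fell and none rose, or 3 fell without day 21 replicate 1 or 3, and 1 with the covariate. Snai1 and Twist1, factors that repress epithelial genes, rose. Snai1 stood at 7.37, 7.61 and 8.10 at day 2 and 9.13, 9.30 and 8.74 at day 21, a change of 1.37 (SE 0.21, adjusted p = 0.00101). Twist1 stood at 5.43, 4.84 and 5.51 at day 2 and 6.79, 7.30 and 6.48 at day 21, a change of 1.60 (SE 0.29, adjusted p = 0.00298).

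Of 28 genes of vasoactive signalling 6 fell (21.4%) and 3 rose (10.7%), not far from the background, but 3 of the falls were large. With the covariate 5 fell and 1 rose. Enpep, the peptidase that cleaves angiotensin II, stood at 10.79, 10.54 and 10.45 at day 2 and 6.75, 6.90 and 5.94 at day 21, a change of -4.06 (SE 0.24, adjusted p = 1.86e-06) or 16.7-fold. Mme, neprilysin, stood at 8.43, 7.97 and 7.94 at day 2 and 4.58, 4.41 and 4.22 at day 21, a change of -3.71 (SE 0.20, adjusted p = 1.47e-06). Agtr2, the angiotensin receptor typical of fetal tissue, stood at 7.45, 7.57 and 7.93 at day 2 and 4.51, 4.10 and 4.32 at day 21, a change of -3.34 (SE 0.18, adjusted p = 1.47e-06). The arrays of day 21 lay far below those of day 2 for all of them.

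Agtr1a, the main angiotensin receptor, fell by 1.36 (SE 0.19, adjusted p = 0.000496), and Adra1b, an adrenergic receptor, stood at 7.51, 7.23 and 7.68 at day 2 and 5.02, 4.64 and 4.01 at day 21, a change of -2.92 (SE 0.25, adjusted p = 1.77e-05). Gucy1a1, a subunit of the nitric oxide receptor, fell by 1.34 (adjusted p = 0.006). Ace, the enzyme that makes angiotensin II, went the other way, at 5.38, 5.38 and 5.71 at day 2 and 7.30, 7.18 and 6.54 at day 21, a change of 1.52 (SE 0.20, adjusted p = 0.000414). Anpep, an aminopeptidase that myeloid cells also carry, rose by 1.08 (adjusted p = 0.00626).

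Of 26 genes of class I presentation, which all nucleated cells carry, 12 rose and none fell, with a median of 0.58. RT1-S3 stood at 6.71, 6.72 and 6.77 at day 2 and 8.29, 8.38 and 8.53 at day 21, a change of 1.67 (SE 0.19, adjusted p = 0.000129), and all 4 of its probe sets were called higher. RT1-CE5 rose by 1.71 (adjusted p = 0.00034) and Nlrc5, the coactivator of class I genes, by 1.06 (SE 0.16, adjusted p = 0.00108). B2m, the light chain shared by class I molecules, had means of 12.32 ± 0.07 at day 2 and 12.85 ± 0.13 at day 21 (SD, n = 3) and rose by 0.53 (adjusted p = 0.0397), but it was no longer called whichever of the 6 arrays was left out (adjusted p up to 0.126). Rises numbered 6 without day 21 replicate 3, 7 without day 2 replicate 1 or 2. With the macrophage covariate 4 members were higher.

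Genes induced by interferon rose in 27 of 47 cases, 57.4% against 8.8%, and 1 fell, with a median of 0.69. The fall was called without day 21 replicate 3 but not when any other of the 6 arrays was left out, and not with the covariate. Ifit3, an antiviral protein, stood at 7.46, 8.02 and 7.69 at day 2 and 9.99, 9.96 and 10.14 at day 21, a change of 2.30 (SE 0.26, adjusted p = 0.000121). Irf7, the factor that amplifies interferon, stood at 6.77, 7.09 and 7.31 at day 2 and 8.51, 8.67 and 8.45 at day 21, a change of 1.49 (SE 0.17, adjusted p = 0.000164). Isg15, a ubiquitin-like modifier, stood at 7.65, 8.15 and 7.63 at day 2 and 9.29, 9.11 and 9.50 at day 21, a change of 1.49 (SE 0.25, adjusted p = 0.00196). The days did not overlap in any of them. Tap2, a subunit of the peptide transporter, rose by 1.19 (SE 0.19, adjusted p = 0.00111) and Cxcl10, a chemokine that interferon induces, by 1.70 (SE 0.16, adjusted p = 3.5e-05).

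The count of interferon genes that rose was 16 without day 2 replicate 1 or 2, 35 after quantile normalization and 6 with the macrophage covariate. With the covariate Ifit3 changed by 1.63 (adjusted p = 0.00533) and Isg15 by 0.81 (adjusted p = 0.0844). GAAANNGAA, a shortened interferon response element in which N is any base, was searched on both strands. It stood in 11 (52.4%) of the 21 promoters of these 27 genes in the table and in 9.5% of all. Of the 38 measured members with a promoter, called or not, 23 held it. The match is thus a trait of the list and does not set apart the genes that rose. The genes shown were picked among called members with a match in the stretch shown. The 110 bases before the start are shown for Ifit3 at chr1:241527216-241527325 on the plus strand, Irf7 at chr1:205800024-205800133 on the minus strand and Tap2 at chr20:4652297-4652406 on the minus strand, with the matches in capitals.
Ifit3: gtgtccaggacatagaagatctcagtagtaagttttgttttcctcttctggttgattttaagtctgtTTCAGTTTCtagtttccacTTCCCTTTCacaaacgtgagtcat
Irf7: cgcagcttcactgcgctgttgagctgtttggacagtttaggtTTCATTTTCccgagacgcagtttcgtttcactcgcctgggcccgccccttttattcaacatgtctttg
Tap2: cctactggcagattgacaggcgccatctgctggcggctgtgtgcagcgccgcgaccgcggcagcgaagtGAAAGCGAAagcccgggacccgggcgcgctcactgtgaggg
The matches in Ifit3 and Irf7 read on the opposite strand.

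Chemokine genes rose in 18 of 38 cases and fell in 1, or in 2 without day 21 replicate 1. After Ccl11, Ccl17 and Ccl22, the largest were Ccl5, made by T and NK cells among others, and the receptor Cxcr4. Ccl5 stood at 3.95, 4.31 and 3.93 at day 2 and 6.25, 6.65 and 6.64 at day 21, a change of 2.45 (SE 0.17, adjusted p = 4.14e-06). Cxcr4 stood at 8.07, 8.41 and 8.39 at day 2 and 9.75, 10.16 and 10.37 at day 21, a change of 1.81 (SE 0.22, adjusted p = 0.000224). Cxcl6 rose by 1.74 (adjusted p = 0.000276). Cxcl13, a B cell attractant, was the member that fell, from 8.95, 9.32 and 8.91 at day 2 to 7.81, 7.20 and 6.74 at day 21, by 1.81 (SE 0.29, adjusted p = 0.00132). Ccl2, the monocyte chemokine, stood at 12.42, 12.44 and 12.26 at day 2 and 12.56, 12.60 and 12.45 at day 21 and did not pass (adjusted p = 0.432), and neither did Cxcl12 by its brightest probe set (-0.52, adjusted p = 0.0813). Of the 3 probe sets of Cxcl12 1 was called lower (-1.15, adjusted p = 0.00101). With the covariate 10 members were called higher and 2 lower.

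Cytokine genes rose in 13 of 49 cases and fell in 4, or in 6 and 3 with the covariate. Il6 stood at 8.21, 8.45 and 8.38 at day 2 and 10.70, 11.03 and 10.16 at day 21, a change of 2.28 (SE 0.20, adjusted p = 2.28e-05), and with the macrophage covariate the change was 2.52 (adjusted p = 0.000903). Il10, an anti-inflammatory cytokine, stood at 4.70, 4.48 and 4.10 at day 2 and 6.59, 6.49 and 6.80 at day 21, a change of 2.20 (SE 0.25, adjusted p = 0.000141). Socs3, a feedback inhibitor that IL-6 induces, stood at 5.67, 5.23 and 6.44 at day 2 and 7.98, 8.01 and 7.88 at day 21, a change of 2.18 (SE 0.28, adjusted p = 0.000307). Saa3, an acute phase protein, went the other way, at 8.61, 8.79 and 9.05 at day 2 and 6.04, 5.97 and 6.42 at day 21, a change of -2.67 (SE 0.18, adjusted p = 4.47e-06). Il34, a ligand of the macrophage growth factor receptor, rose by 1.40 (adjusted p = 0.000589), and Tslp, an epithelial and stromal cytokine, fell by 1.63 (adjusted p = 0.000838). Il1b and Tnf, cytokines of activated macrophages, changed by 0.38 (adjusted p = 0.355) and 0.65 (adjusted p = 0.131) and did not pass, although the other probe set of Tnf was called higher (1.57, adjusted p = 0.0122).

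Complement genes rose in 8 of 23 cases and fell in 3, or in 1 without day 21 replicate 3. With the covariate 4 rose and 0 fell. C3, the central component, stood at 6.91, 7.40 and 7.44 at day 2 and 9.40, 9.10 and 8.91 at day 21, a change of 1.88 (SE 0.26, adjusted p = 0.00051), and Clu, clusterin, at 8.21, 8.16 and 8.77 at day 2 and 10.57, 10.78 and 9.56 at day 21, a change of 1.93 (SE 0.29, adjusted p = 0.000949). Cd55, which protects cells from complement, rose by 1.69 (SE 0.22, adjusted p = 0.00034).

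Of 29 immediate early genes, which respond within minutes to stimuli including cell dispersal, 17 rose and none fell, with a median of 0.76. Dusp5, a phosphatase that curbs ERK, stood at 7.64, 7.43 and 8.01 at day 2 and 9.72, 9.73 and 9.71 at day 21, a change of 2.03 (SE 0.18, adjusted p = 2.44e-05). Junb stood at 9.10, 9.07 and 9.66 at day 2 and 11.13, 10.76 and 10.56 at day 21, a change of 1.54 (SE 0.21, adjusted p = 0.000464), and Nr4a3 rose by 1.36 (SE 0.16, adjusted p = 0.000175). Fos stood at 11.12, 11.05 and 10.58 at day 2 and 11.76, 11.77 and 11.68 at day 21, a change of 0.82 (SE 0.17, adjusted p = 0.0066). Jun, Egr1 and Atf3 changed by 0.19 (adjusted p = 0.393), 0.31 (adjusted p = 0.19) and 0.26 (adjusted p = 0.235) and did not pass. The mean of all 29 members was 9.37 to 9.49 at day 2 and 10.03 to 10.19 at day 21. With the macrophage covariate 13 members were called higher, and with each array left out 16 to 18. All samples went through the same dispersal and 45 min on plastic, and the part of that handling in the levels was not tested.

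Of 31 heat shock and unfolded protein genes 4 rose (12.9%) and 2 fell (6.45%), against 8.8% and 15.3% of all genes. With the covariate 0 rose and 1 fell. Rises numbered 0 without day 2 replicate 2 or day 21 replicate 1 or 2, 1 without day 2 replicate 1, 2 without day 2 replicate 3. Hspa1a, the inducible HSP70, stood at 12.80, 12.74 and 12.65 at day 2 and 13.08, 13.01 and 12.89 at day 21, a change of 0.26 (adjusted p = 0.207), and Hspa5, the chaperone of the endoplasmic reticulum, changed by -0.17 (adjusted p = 0.447). Pdia6, a disulfide isomerase there, fell by 0.94 (SE 0.13, adjusted p = 0.000616).

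Antioxidant and detoxification genes divided, with 14 of 49 higher and 10 lower (4 and 5 with the covariate). Rises numbered 6 without day 2 replicate 2, 8 without day 21 replicate 1, 9 without day 21 replicate 3. Aox1, aldehyde oxidase, stood at 3.47, 4.27 and 3.90 at day 2 and 6.46, 6.18 and 5.58 at day 21, a change of 2.19 (SE 0.25, adjusted p = 0.000118). Sod3, the extracellular superoxide dismutase, stood at 6.33, 5.86 and 7.09 at day 2 and 8.69, 8.50 and 8.12 at day 21, a change of 2.01 (SE 0.27, adjusted p = 0.000413). Akr1b8, an aldo-keto reductase, rose by 1.86 (SE 0.20, adjusted p = 8.49e-05).

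Among targets of the factor NRF2, which senses oxidants, Slc7a11, the cystine transporter, rose by 1.24 (adjusted p = 0.00658) and Gclc, which starts glutathione synthesis, by 0.67 (adjusted p = 0.00636). Nqo1 stood at 10.36, 10.49 and 10.93 at day 2 and 11.22, 11.42 and 11.34 at day 21 and rose by 0.73 (adjusted p = 0.0123), but it was no longer called without day 2 replicate 1 or day 2 replicate 2 (adjusted p up to 0.0521). Hmox1, heme oxygenase 1, stood at 11.64, 11.51 and 11.72 at day 2 and 12.25, 11.98 and 12.41 at day 21 and rose by 0.59 (adjusted p = 0.0287), but it was no longer called without day 2 replicate 1, day 2 replicate 2, day 21 replicate 1 or day 21 replicate 3 (adjusted p up to 0.103). Ces1d, a carboxylesterase, and Gsta4, a glutathione transferase, were lower. Ces1d stood at 10.81, 10.38 and 10.08 at day 2 and 8.22, 7.94 and 7.28 at day 21, a change of -2.61 (SE 0.26, adjusted p = 5.83e-05). Gsta4 stood at 9.31, 9.32 and 8.75 at day 2 and 6.94, 6.87 and 6.89 at day 21, a change of -2.23 (SE 0.18, adjusted p = 1.03e-05).

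Genes of oxidative phosphorylation fell in 15 of 48 cases and rose in none, with a median of -0.37. Ndufs4, a subunit of complex I, stood at 9.84, 9.95 and 9.75 at day 2 and 8.71, 8.24 and 8.67 at day 21, a change of -1.30 (SE 0.19, adjusted p = 0.000819), and Uqcrc2 of complex III fell by 0.90 (adjusted p = 0.00211). Many members were near the threshold. Falls numbered 3 without day 2 replicate 2, 5 without day 21 replicate 1 or 2, 7 without day 2 replicate 1 or 3. The count was 5 after centring the arrays on their medians and 9 after quantile normalization, and 2 with the covariate.

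Of 26 genes of glycolysis and the hypoxia response 3 rose (11.5%) and 2 fell (7.69%), against 8.8% and 15.3% of all genes. With the covariate 3 rose and 0 fell. Rises numbered 6 without day 2 replicate 3, and falls numbered 1 without day 2 replicate 1 or 2 or day 21 replicate 1 or 3. Hk1 and Pfkp, enzymes of glycolysis, rose by 1.37 (adjusted p = 0.00084) and 1.38 (adjusted p = 0.000188), and Slc2a1 and Ldha changed by 0.24 (adjusted p = 0.317) and -0.24 (adjusted p = 0.366) and did not pass. Of 33 ribosome and translation genes limma called none at an adjusted p under 0.05, against 24.1% of all genes, and the median change was -0.10. At an unadjusted p under 0.05, 2 were lower and none higher. Yet 16 of the 33 had all day 21 arrays below day 2, against 24.5% of all genes, and none had all above, against 18.5%. Rpl3, a ribosomal protein, was one of the 16, with 12.89, 12.92 and 12.88 at day 2 and 12.75, 12.70 and 12.75 at day 21, a change of -0.17 (adjusted p = 0.399).

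Of 32 chromatin genes 9 fell and 2 rose, or 2 and 0 with the covariate. Rises numbered 1 without day 2 replicate 1 or 2 or day 21 replicate 1 or 2, and falls numbered 4 without day 2 replicate 1, 5 without day 2 replicate 2 or day 21 replicate 3. Hmgb3, a chromatin protein of progenitor cells, fell by 1.25 (SE 0.16, adjusted p = 0.000301), Cbx5, the heterochromatin protein HP1 alpha, by 1.11 (adjusted p = 0.000803) and Tet2, which oxidizes methylated cytosine, by 1.10 (adjusted p = 0.00302). Cbx7, a Polycomb subunit, rose by 1.05 (adjusted p = 0.00306). The cystatins Cst7 and Cst3, inhibitors of lysosomal cathepsins that myeloid cells express strongly, stood at 6.70, 7.05 and 7.46 at day 2 and 9.20, 9.53 and 9.71 at day 21 and at 10.53, 10.49 and 10.82 at day 2 and 12.55, 12.49 and 12.52 at day 21. Their changes were 2.41 (SE 0.28, adjusted p = 0.000144) and 1.91 (SE 0.17, adjusted p = 2.22e-05), and with the macrophage covariate 2.02 (adjusted p = 0.0138) and 1.82 (adjusted p = 0.00233).

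**Figure D5:**
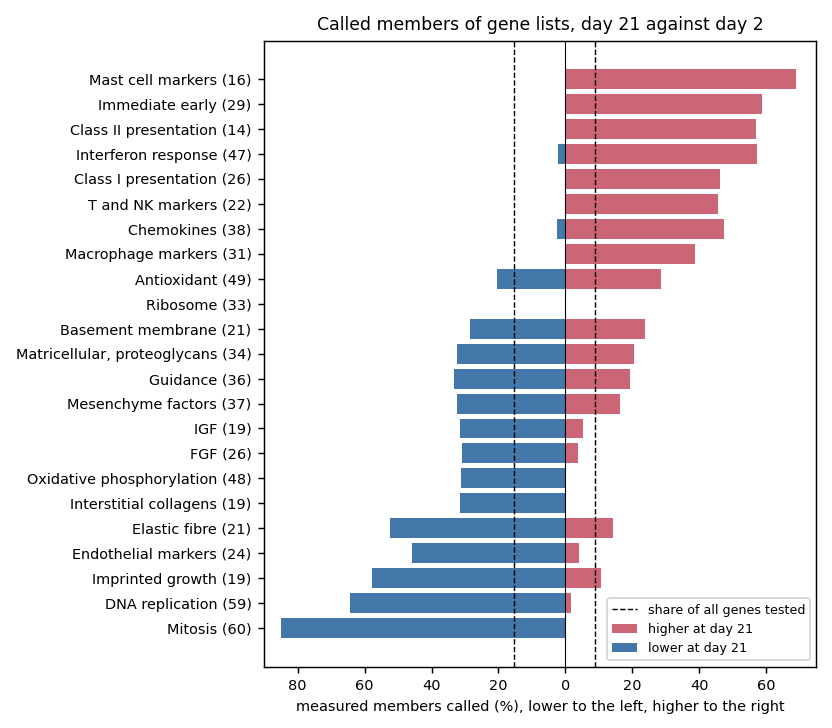
Share of the measured members (number in brackets) of 23 gene lists that were called lower (blue, to the left) or higher (red, to the right) at day 21; dashed lines mark the shares over all genes, 15.3% lower and 8.8% higher. Mitosis genes reach 85.0% lower, and class II (57.1%) and interferon genes (57.4%) are mostly higher, while no ribosome gene was called.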

How the data were processed

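RNA of freshly isolated rat lung fibroblasts was hybridised to 9 single-colour Affymetrix arrays, 3 per day. The deposited values are intensities, 1 per probe set and array, for which the submitters' processing notes name RMA and the affy package, without a version. Other steps of the authors are not given. From their range the deposited intensities were taken as linear, and log2 was computed here from the deposited values with no further scaling and no pseudocount. Of 31099 probe sets 57 spike-in and control probe sets were left out. Of the other 31042, 20826 carried 1 gene symbol in the platform annotation, 436 several and 9780 none, and only the first kind was named, as 14217 genes.

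A linear model with a mean per day was fitted to all 9 arrays in limma 3.58.1 (R 4.3.3), and p-values of day 21 against day 2 were adjusted by Benjamini-Hochberg over the 31042 probe sets. The number of arrays limits the precision. The procedure was run on simulated data with known changes and independent noise. Such data hold no shifts shared by many genes, such as those of cell mix, so they do not test the calls made here. Genes were named by rule: the 20 largest rises and 20 largest falls among called genes with no overlap between the days, and from each of 67 gene lists its first 4 members and its called members with the largest changes, at most 8. The comparison, the rule and the lists were chosen with earlier results of these data known. Promoter sequences came from RefSeq (GRCr8). Alternatives tried were quantile normalization, centring, a pseudocount of 16, a filter on dim probe sets, fewer arrays, another variance model, a replicate block, a macrophage covariate, the mean of all probe sets of a gene, and each array left out.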

Additional observations from a re-analysis of the deposited data

How the results depend on the processing

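A further quantile normalization gave 3397 higher probe sets and 1958 higher genes and raised the share of higher calls from 36.0% to 47.3%; 1219 of the 1251 genes first called higher were among the 1958. The macrophage covariate gave 496 higher and 1102 lower probe sets, or 311 higher and 682 lower genes, of which 289 and 657 were also called without it; this fit spends a degree of freedom on a covariate that differs between the days, and no further cause was tested. With 1 array left out, 1186 to 1906 probe sets were higher and 2617 to 3391 lower, and 709 to 1159 genes were higher and 1581 to 1967 lower, the fewest genes of either kind without day 2 replicate 2. The mean of all probe sets of a gene gave 1549 higher and 2295 lower genes. With the replicate block 2017 probe sets were higher and 3800 lower, and 1191 genes higher and 2113 lower. Deviations of same-numbered arrays correlated at 0.05, -0.10 and 0.03, and those of differently numbered arrays at -0.11 to 0.10. These values do not tell whether same-numbered samples came from the same litter. Of the 416 named genes that were called, 200 lost the call with the covariate, 46 to 68 without 1 array, and 4 to 23 under the quantile, centring, pseudocount, 6-array, variance-model, block and probe-set alternatives, and none changed sign; 405 were kept by the filter on dim probe sets and all of those remained called. Levels near the low end of 4.25 understate a change.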

Other observations

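Of 21 genes of the circadian clock 5 were higher (23.8%) and 2 lower (9.52%), or 4 and 2 with the macrophage covariate. Rises numbered 3 without day 2 replicate 2 or day 21 replicate 1 or 2. Nr1d1, or REV-ERB alpha, a repressor of the clock, stood at 5.95, 5.84 and 7.00 at day 2 and 8.73, 8.75 and 8.48 at day 21, a change of 2.39 (SE 0.26, adjusted p = 9.11e-05). Per2, a repressor of the core loop, stood at 9.22, 9.31 and 9.17 at day 2 and 7.96, 7.51 and 7.08 at day 21, a change of -1.72 (SE 0.23, adjusted p = 0.000418), and Cry2 fell by 0.96 (adjusted p = 0.00168). Bmal1, the activator, did not pass (0.49, adjusted p = 0.125), nor did its output Dbp (-0.09, adjusted p = 0.797). The labels do not name the hour of isolation. Hlf, a clock output factor, rose by 1.15 (adjusted p = 0.00108).

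Of 31 integrins, cadherins and other adhesion genes 11 rose and 4 fell, or 1 and 3 with the covariate. Rises numbered 6 without day 2 replicate 2, 7 without day 2 replicate 1. Cdh11, the cadherin of mesenchyme, stood at 10.21, 9.88 and 9.79 at day 2 and 7.47, 7.70 and 7.15 at day 21, a change of -2.52 (SE 0.18, adjusted p = 6.15e-06), and Cdh2, N-cadherin, fell by 1.45 (adjusted p = 0.000292). Itgal and Itgb7, integrin chains of leukocytes, rose by 1.17 (adjusted p = 0.00573) and 1.37 (adjusted p = 0.00048), beside the macrophage and dendritic markers that were also higher. The widely expressed chain Itgb1 stood at 11.69, 11.69 and 11.83 at day 2 and 11.56, 11.77 and 11.45 at day 21, a change of -0.15 (adjusted p = 0.514).

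Of 36 ion channels and transporters 5 rose (13.9%) and 7 fell (19.4%), not far from 8.8% and 15.3% of all genes, or 2 and 5 with the covariate. Rises numbered 3 without day 2 replicate 1 or 2 or day 21 replicate 2. Cacna1d, a calcium channel subunit, stood at 6.77, 6.55 and 6.86 at day 2 and 4.22, 4.29 and 4.37 at day 21, a change of -2.43 (SE 0.24, adjusted p = 5.31e-05). Scn7a, a sodium channel of unusual gating, fell by 1.80 (adjusted p = 0.00107), and Trpc4, a cation channel, rose by 1.57 (adjusted p = 0.00129). Slc1a3, a glutamate transporter, stood at 8.54, 8.28 and 8.25 at day 2 and 6.18, 6.20 and 6.27 at day 21, a change of -2.14 (SE 0.16, adjusted p = 7.59e-06).

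Cartilage genes differed between samples of the same day. Col2a1, the cartilage collagen, stood at 9.66, 8.34 and 9.17 at day 2 and 9.09, 10.84 and 8.39 at day 21 and changed by 0.38 (adjusted p = 0.646). Its highest array was day 21 replicate 2. Col9a1, another cartilage collagen, stood at 9.42, 8.40 and 8.08 at day 2 and 7.16, 8.63 and 6.24 at day 21. Their day 7 means were 4.37 and 3.54, near the low end. Scgb1a1, the secretoglobin of airway club cells, stood at 9.71, 10.37 and 9.95 at day 2 and 10.42, 11.37 and 10.64 at day 21, with a day 7 mean of 7.65. Its change between days 2 and 21 did not pass (0.80, adjusted p = 0.0925).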
